A study of Mus musculus with 4 samples.

Results

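The promoters and surroundings of 35 endothelial and blood lineage genes were examined in the H3K27ac landscape of sorted fetal mouse cells. The genes were taken by name for their known lineage, by a rule that uses no measured value, out of 21581 protein-coding genes with a start site on the chromosomes used. They fall into 18 genes of the blood vessel wall, 8 genes of red cells and their progenitors, and 9 genes of macrophages and other white cells. For each gene, peak intervals of 4 lists were read at its promoter and, outside all promoters, within 100 kb of any of its start sites. The lists come from E14.5 fetuses that carry an EGFP sensor at both copies of Col2a1, the gene of the main cartilage collagen, and that were made by tetraploid aggregation from 1 male ESC clone. Limbs, or trunks from neck to tail without the internal organs, were dissected from decapitated fetuses, and live single cells were sorted into EGFP+ chondrocytes and EGFP− cells, which hold whatever else the dissociated tissue contained. The 4 groups were therefore limb EGFP+, limb EGFP−, trunk EGFP+ and trunk EGFP−, all of the same age and genotype, with 1 library each from pooled tissue.

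H3K27 acetylation marks active promoters and enhancers. Endothelial cells line every vessel and depend on VEGF receptors such as Kdr and Flt1, on angiopoietin signalling through Tek, on junction proteins such as Cdh5 and Pecam1, and on transcription factors of the ETS family (Erg, Fli1) and the SoxF family (Sox7, Sox17, Sox18). Red cells are made under Gata1, Klf1 and Tal1, and macrophages under the ETS factor Spi1, whose target Csf1r is the receptor for their growth factor. Fetal cartilage has no vessels of its own, whereas the connective tissue, muscle and skin around it do.

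With 1 library per group there is no replicate error, so no difference between groups was tested. Shares carry exact binomial 95% intervals and reads exact Poisson 95% intervals, which cover counting error only. The lists held 30716 to 40899 intervals, with a median of 24 to 26 reads at the strongest summit, and the weakest listed summits had 7 or 8 reads. A site with fewer would not be seen, and over a higher local background more reads were needed for a call. The EGFP+ lists were longer than the EGFP− list of the same tissue. The limb pair and the trunk pair came from different lanes, which leaves lane and tissue inseparable (they cannot be told apart), and the peak names of the trunk EGFP− list carry a replicate number 2 against 1 in its sample label. As a check of the sort, the promoters of all 10 cartilage genes listed as markers, among them Col2a1, Sox9 and Acan, were marked in both EGFP+ lists, against 4 in limb EGFP− and 3 in trunk EGFP−. Of 8 muscle markers, only Myog (limb EGFP+) and Chrna1 (trunk EGFP−) were marked, and of 8 epithelial markers only Grhl2 and Esrp1, both in limb EGFP−. Over all protein-coding genes 51.6% were marked in limb EGFP− and 52.7% in trunk EGFP−. The paper reports high expression of muscle and epithelial markers, such as Myod1 and Krt14, in EGFP− cells. Neither had a listed promoter here, so the promoter of an expressed gene can be unlisted. In sorted bulk cells, fewer cells of a type and less acetylation per cell cannot be told apart.

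Few of the lineage genes had an acetylated promoter in any population, and slightly more were marked in chondrocytes than in EGFP− cells, within the counting error. A promoter was counted as marked where an interval overlapped the stretch from 2 kb upstream to 500 bp downstream of any of its start sites. In limb EGFP+ 6 of 35 members were marked (17.1%, 6.56 to 33.6), in limb EGFP− 4 (11.4%, 3.20 to 26.7), in trunk EGFP+ 5 (14.3%, 4.81 to 30.3) and in trunk EGFP− 3 (8.57%, 1.80 to 23.1). Over all protein-coding genes the shares were 54.4%, 51.6%, 52.6% and 52.7%. In all, 28 of 35 members (80.0%, 63.1 to 91.6) were listed nowhere, against 41.3% of all genes, and 7 were marked in at least 1 list.

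**Figure D1:**
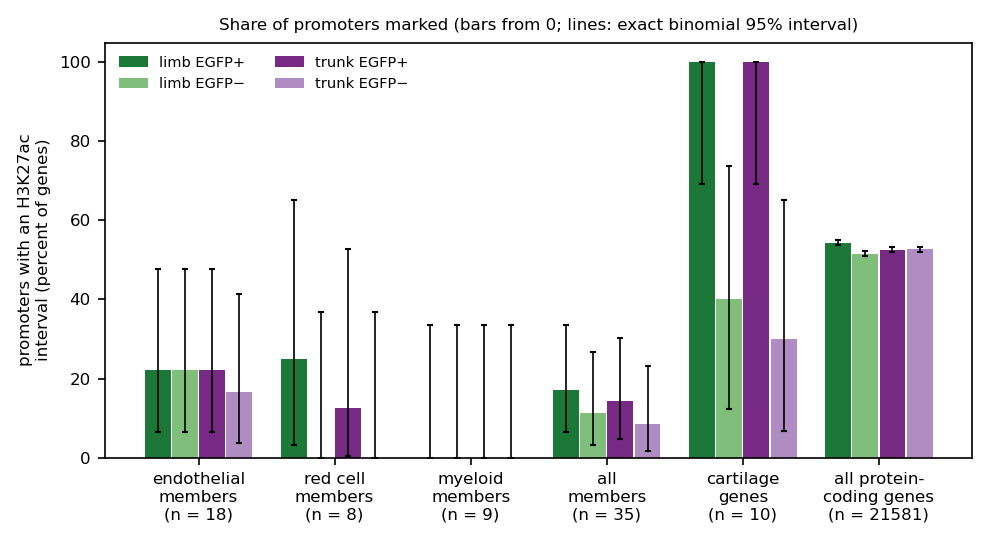
Share of promoters with an H3K27ac interval, in percent of the genes of each group, for the 4 libraries; bars start at 0 and the black lines are exact binomial 95% intervals. Members lie between 8.57% and 17.1%, all protein-coding genes between 51.6% and 54.4%, and the 10 cartilage genes reach 100.0% in both EGFP+ libraries.

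The defining vessel genes were mostly unmarked. None of Kdr, Flt1, Flt4, Pecam1, Cdh5, Tie1, Sox7, Sox17, Sox18, Emcn, Esam, Cldn5 and Robo4 had a promoter interval in any list, which are 13 of the 18 endothelial members (72.2%, 46.5 to 90.3). All 9 myeloid members (Spi1, Csf1r, Ptprc, Cd68, Aif1, Mrc1, Ikzf1, Cx3cr1 and Adgre1) were unmarked in every list, and so were 6 of the 8 red cell members, with Gata1, Tal1 and Klf1 among them. An unlisted promoter here is one below the depth of the lists, not one shown to lack the mark.

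Tek, the angiopoietin receptor, was the only member marked in both EGFP− lists alone. Its strongest promoter summit had 13 reads (6.92 to 22.2) in limb EGFP− and 13 reads (6.92 to 22.2) in trunk EGFP−, with −log10 p of 6.14 and 4.73, and nothing was listed there in either EGFP+ library. Both intervals began 118 to 165 bp downstream of the start site. These are weak summits, below the median of 24 to 26 reads. Tek was thus the 1 member with an EGFP−-only promoter in the limb, where 2.02% of all protein-coding genes had one, and the 1 in the trunk, where 3.31% had one. The Tek promoter was in neither EGFP− list at a −log10 q of at least 5, at a fold of at least 4 or among the 20000 strongest intervals of each list.

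The Tek promoter sequence is shown because it was the only member promoter listed in EGFP− cells of both tissues and not in chondrocytes. The 300 bases around its limb EGFP− summit, GRCm39 chr4:94627380-94627679, plus strand (the strand of the gene), lie just inside the gene. Capitals mark the letters of the motifs searched for, here a SOX match and, nearer to the 3′ end, a GATA match.
Tek: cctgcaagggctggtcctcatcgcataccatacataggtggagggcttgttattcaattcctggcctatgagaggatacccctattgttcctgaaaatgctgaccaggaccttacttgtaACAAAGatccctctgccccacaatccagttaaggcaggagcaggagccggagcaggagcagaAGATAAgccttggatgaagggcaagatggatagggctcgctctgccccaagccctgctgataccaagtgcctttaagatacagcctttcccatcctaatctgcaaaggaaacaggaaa

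Erg and Fli1, ETS factors of endothelial cells that mesenchymal tissues use as well, had the member promoters with most reads at the summit, and these reads were most numerous in chondrocytes. At the Erg promoter the summit had 85 reads (67.9 to 105) in limb EGFP+, 14 (7.65 to 23.5) in limb EGFP− and 50 (37.1 to 65.9) in trunk EGFP+, and no interval was listed in trunk EGFP−. The marked start was the most upstream of the 8 annotated ones, and the interval lay 125484 bp upstream of the canonical start, which had none. In limb EGFP+ the interval was 1733 bp wide, against 442 bp in limb EGFP− and 460 bp in trunk EGFP+. Fli1 was marked in all 4 lists, with 68 reads (52.8 to 86.2) in limb EGFP+, 29 (19.4 to 41.6) in limb EGFP−, 73 (57.2 to 91.8) in trunk EGFP+ and 26 (17.0 to 38.1) in trunk EGFP−. For both genes the EGFP+ intervals lay above the EGFP− intervals of the same tissue without overlap, as far as an EGFP− interval was listed. Over the local background that the peak caller took from the same library, the order was not the same for Fli1, with folds of 2.61 in limb EGFP+, 3.70 in limb EGFP−, 2.75 in trunk EGFP+ and 2.80 in trunk EGFP−. For Erg the folds were 4.84 in limb EGFP+, 3.23 in limb EGFP− and 4.29 in trunk EGFP+.

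Eng, the TGF-β coreceptor endoglin, was marked in both EGFP+ lists alone. Its summits, over or next to the canonical start, had 31 reads (21.1 to 44.0) in the limb and 24 (15.4 to 35.7) in the trunk. Egfl7, an endothelial secreted protein, was marked in all 4 lists at similar heights, with 23 reads (14.6 to 34.5) in limb EGFP+, 22 (13.8 to 33.3) in limb EGFP−, 17 (9.90 to 27.2) in trunk EGFP+ and 21 (13.0 to 32.1) in trunk EGFP−. The strongest Egfl7 interval of limb EGFP− lay at another of its 16 start sites than those of the other lists.

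Only 2 red cell members were marked, both in chondrocytes alone. Lyl1, a helix-loop-helix factor of blood progenitors, had 16 reads (9.15 to 26.0) in limb EGFP+ and 23 (14.6 to 34.5) in trunk EGFP+, at intervals 1756 and 1683 bp upstream of its canonical start. Gata2, a factor of blood progenitors and of several other tissues, had 12 reads (6.20 to 21.0) in limb EGFP+, 1192 bp upstream of its canonical start. EGFP+-only promoters were thus those of Eng, Gata2 and Lyl1 in the limb (3 members, beside 4.83% of all genes) and of Erg, Eng and Lyl1 in the trunk (3 members, beside 3.22% of all genes). The Gata2 promoter was in no EGFP+ list at −log10 q of at least 5 or among the 20000 strongest intervals of each list. At these settings and at fold of at least 4, Lyl1 was in 1 EGFP+ list. Erg and Eng stayed in 2, except Eng in 1 at fold of at least 4. With a promoter window of 1 kb upstream, Lyl1 was EGFP+-only in the limb but not the trunk. Erg, Eng and Gata2 were among 8 members listed as known also from other cell types, together with Fli1, Lmo2, Epor, Flt1 and Sox18. This list was chosen with earlier results of these data known, so the counts without its genes depend on that choice. Without those 8, Lyl1 was the 1 member left with an EGFP+-only promoter in each tissue and 24 of 27 members (88.9%) were unmarked in all lists.

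**Figure D2:**
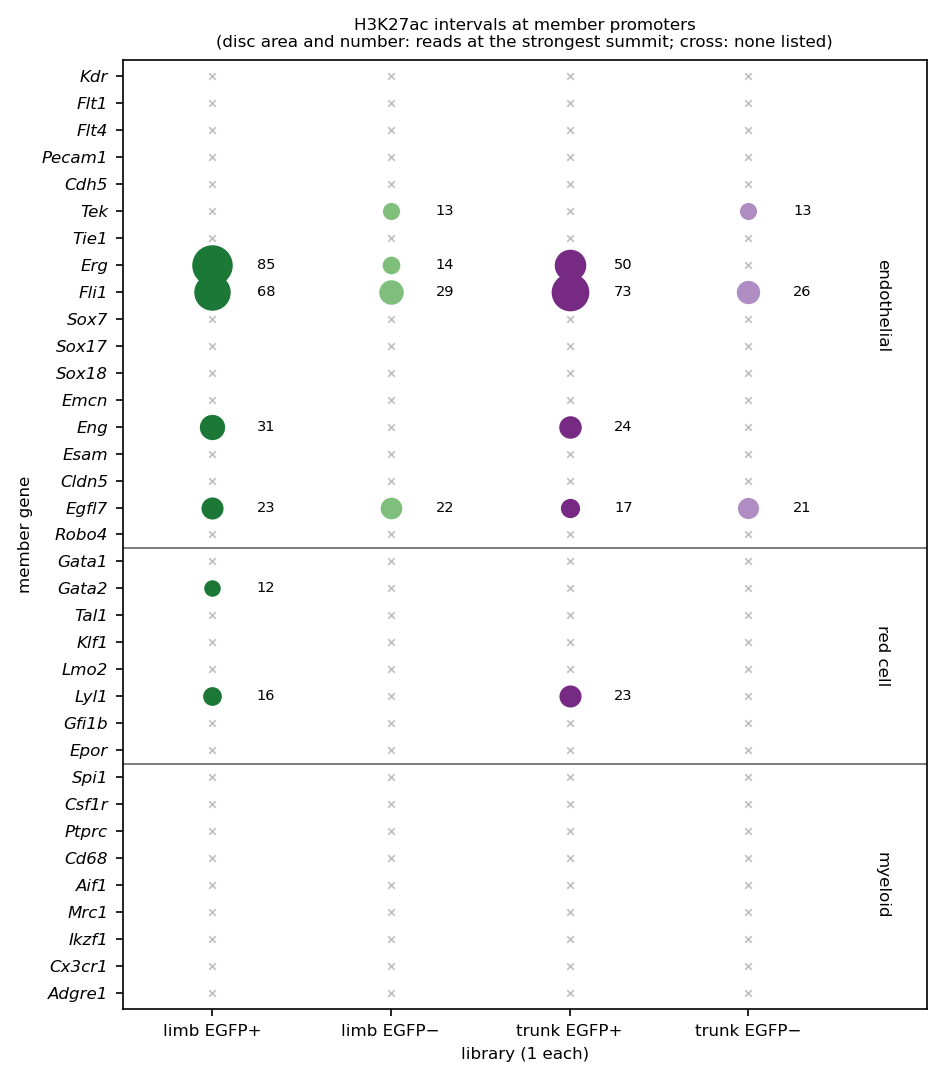
Promoter intervals of the 35 members in the 4 libraries. Disc area and the number beside it give the reads at the strongest summit of the promoter, and a cross marks a promoter with no listed interval; discs are found for Tek, Erg, Fli1, Eng, Egfl7, Gata2 and Lyl1 only, with the largest for Erg in limb EGFP+ (85 reads) and Fli1 in trunk EGFP+ (73 reads).

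Among other genes of the same lineages, a smaller share was unmarked in all lists than among the members, with overlapping counting intervals. It was 57.7% (36.9 to 76.6) of the endothelial, 69.2% (48.2 to 85.7) of the red cell and 63.0% (42.4 to 80.6) of the myeloid genes. The members had 80.0% (63.1 to 91.6) and all genes 41.3%. EGFP−-only promoters slightly outnumbered EGFP+-only ones, within the counting error. In EGFP− lists alone were 3 of 26 further endothelial (11.5%, 2.45 to 30.2), 2 of 26 red cell (7.69%, 0.946 to 25.1) and 4 of 27 myeloid genes (14.8%, 4.19 to 33.7), beside 2.76% of all genes. In EGFP+ lists alone were 1, 1 and 3 (3.85%, 3.85% and 11.1%), beside 3.89% of all genes. Of the 26 further endothelial genes 15 were unmarked in all lists and 6 (Ets1, Hey1, Nrp1, Clec14a, Ramp2 and S1pr1) were marked in all 4. The latter are 23.1%, beside 47.4% of all genes. Only EGFP− lists marked Lyve1, a lymphatic hyaluronan receptor (limb, 13 reads), and Hey2 and Nova2 (trunk, 16 and 14 reads), while Apln, an endothelial ligand, had 9 reads in limb EGFP+ alone. Prox1, the master factor of lymphatic vessels, had 12 reads in limb EGFP+, 20 in limb EGFP− and 32 in trunk EGFP−, with none listed in trunk EGFP+. Of 26 further red cell and platelet genes 18 were unmarked everywhere, and the globin genes Hba-a1, Hbb-bt and Hbb-y were among them. Globin genes lie in clusters of related copies, and whether the mapping filter removed reads there was not tested. Ank1, the ankyrin of the red cell membrane, was marked in both EGFP− lists alone (17 and 27 reads), but over 104 kb inside the gene at an alternative start. Sptb, the spectrin partner of ankyrin, had 10 reads over its canonical start in trunk EGFP− alone. Of 27 further myeloid genes 17 were unmarked, and Irf8 (12 reads), Coro1a (14 reads) and Cd14 (9 reads) were marked in limb EGFP− alone. Plek was marked in both EGFP− lists (20 and 31 reads) and Lcp1 in both EGFP+ lists (24 and 19 reads), each at a far upstream start whose window also holds another gene, Cnrip1 and Lrrc63.

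Outside promoters, 33 of the 35 members had at least 1 acetylated region within 100 kb, and Gata1 and Tal1 had none. Of all protein-coding genes, 22.3% had none. A region here is a set of overlapping intervals of the 4 lists that touches no promoter window of any protein-coding gene. There were 198 such regions, of which 52 (26.3%, 20.3 to 33.0) were in EGFP− lists only, 82 (41.4%, 34.5 to 48.6) in EGFP+ lists only and 64 (32.3%, 25.9 to 39.3) in both fractions. Over all 32733 distal regions within 100 kb of a protein-coding start site the shares were 30.7%, 46.4% and 22.8%. Of the 198, 8 (4.04%, beside 4.72% over all genes) were listed in both EGFP− libraries and neither EGFP+ library, and 28 (14.1%, beside 11.1%) in both EGFP+ libraries alone, each share being near that of all genes. A member had a median of 4 regions, from 0 to 27, beside a median of 3 over all genes. Genes with start sites far apart have longer windows, and the counts per gene were not adjusted for this.

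Counted as intervals of each library within 100 kb, fraction-only intervals were less frequent near members than near all genes in the EGFP− lists, but this turned round when intervals were assigned to their nearest gene, and the gap was under 3 percentage points in both tissues at −log10 q of at least 5. In limb EGFP−, 43 of 102 distal intervals near members had no overlapping limb EGFP+ interval (42.2%, 32.4 to 52.3), beside 52.9% near all genes. In trunk EGFP− the count was 32 of 74 (43.2%, 31.8 to 55.3), beside 54.4%. In limb EGFP+, 68 of 128 were absent from limb EGFP− (53.1%, 44.1 to 62.0), beside 66.0%, and in trunk EGFP+ 78 of 117 were absent from trunk EGFP− (66.7%, 57.4 to 75.1), beside 66.3%. These windows hold many other genes. When only intervals with a member as the nearest gene were kept, the EGFP−-only share was 63.3% (19 of 30, 43.9 to 80.1) in the limb and 62.5% (10 of 16, 35.4 to 84.8) in the trunk, above the shares over all genes where the wider window had put it below. The EGFP+-only share was then 66.7% (26 of 39, 49.8 to 80.9) in the limb and 87.8% (36 of 41, 73.8 to 95.9) in the trunk, beside 66.0% and 66.3%. With Erg left out, a choice made after seeing the data, the EGFP+-only shares were 56.5% (13 of 23, 34.5 to 76.8) and 76.2% (16 of 21, 52.8 to 91.8).

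By class, the endothelial members had 27 EGFP−-only intervals of 54 in the limb (50.0%) and 14 of 29 in the trunk (48.3%), and 43 EGFP+-only of 71 (60.6%) and 50 of 65 (76.9%). The red cell members had 6 EGFP−-only of 25 (24.0%) in the limb and 11 of 28 (39.3%) in the trunk, with 19 EGFP+-only of 39 (48.7%) and 16 of 32 (50.0%). The myeloid members had 10 EGFP−-only of 23 (43.5%) and 7 of 17 (41.2%), and 6 EGFP+-only of 18 (33.3%) and 12 of 20 (60.0%). Near all genes the EGFP−-only shares were 52.9% and 54.4%, and the EGFP+-only shares 66.0% and 66.3% (limb, trunk). Wholly below these lay the intervals of the red cell members in limb EGFP− (9.36 to 45.1) and limb EGFP+ (32.4 to 65.2). So did that of the myeloid members in limb EGFP+ (13.3 to 59.0), while the other class intervals held the share near all genes. The intervals of the 3 classes overlapped in every library.

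**Figure D3:**
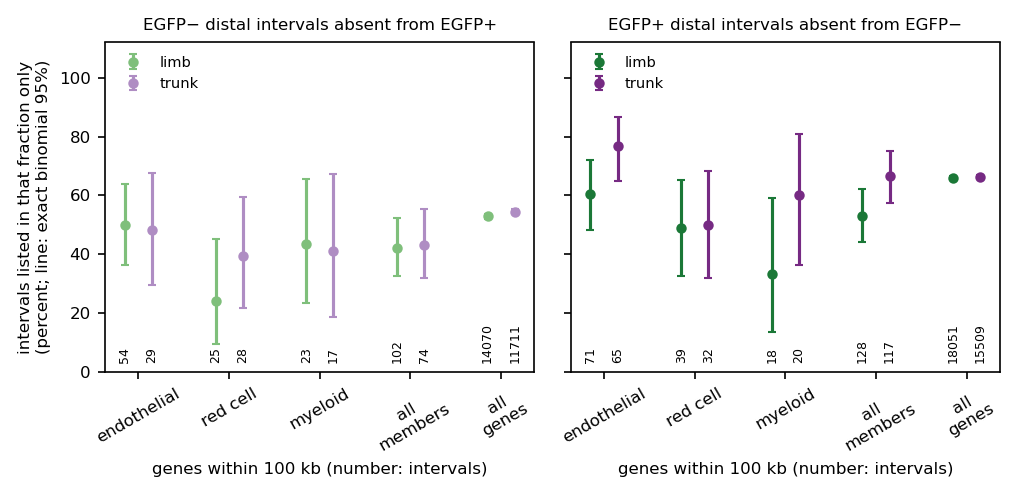
Share of the distal intervals of an EGFP− library (left) or an EGFP+ library (right) that are free of overlap with the list of the other fraction (within the tissue), in percent with exact binomial 95% intervals, near the members of each class and near all protein-coding genes; the small numbers are the intervals counted. For the EGFP− libraries the members lie at 42.2% and 43.2%, below the 52.9% and 54.4% near all genes.

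Erg had the most regions of any member, and most of them were listed in chondrocytes alone. Of its 27 regions 20 were in EGFP+ lists only, 3 in EGFP− lists only and 4 in both, and 24 of the 27 had Erg as the nearest gene. Only 16 of the 21581 protein-coding genes, Erg included, had 20 or more EGFP+-only regions. Windows were drawn around every start site, so they are longer for genes with start sites far apart, such as Erg with 8. The counts and the rank of Erg were not adjusted for window length. Limb EGFP+ listed 17 of the 27, limb EGFP− 6, trunk EGFP+ 19 and trunk EGFP− 3. By −log10 p, the strongest EGFP+-only interval near an endothelial member was, in both tissues, in an Erg intron 60.2 kb downstream of the nearest start, with 49 reads (36.3 to 64.8) in limb EGFP+ and 37 (26.1 to 51.0) in trunk EGFP+. Further intronic regions listed in both EGFP+ libraries alone had 40 and 23 reads (51.1 kb downstream), 40 and 28 reads (12.5 kb downstream) and 41 and 31 reads (10.4 kb upstream of an internal start), in limb and trunk respectively. Under the 3 stricter filters on peaks Erg had 8 to 12 EGFP+-only and 4 to 5 EGFP−-only regions. The EGFP−-only regions of Erg were a weak intronic region in both tissues (13 and 13 reads), 1 in trunk EGFP− (13 reads) and 1 in limb EGFP− (24 reads) nearer to Ets2. Also nearer to Ets2, 87.9 kb upstream of Erg, an interval without a limb EGFP+ counterpart had 29 reads (19.4 to 41.6) in limb EGFP−, with 33 in trunk EGFP− and 16 in trunk EGFP+.

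The 300 bases around the summit of the strongest Erg region are printed as the leading chondrocyte site of the list, a choice made after its values were seen. They are GRCm39 chr16:95199544-95199843, plus strand, and hold no match to any of the 7 motifs, so no letter is in capitals.
Erg: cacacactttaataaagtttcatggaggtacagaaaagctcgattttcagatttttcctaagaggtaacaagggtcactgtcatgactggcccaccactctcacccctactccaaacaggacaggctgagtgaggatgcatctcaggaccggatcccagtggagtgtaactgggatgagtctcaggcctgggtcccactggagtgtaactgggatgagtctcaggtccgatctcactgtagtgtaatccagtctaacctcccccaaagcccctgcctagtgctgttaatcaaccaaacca

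The strongest fraction-only regions of Fli1 were likewise those of the EGFP+ lists. Its introns held regions with 35 and 35 reads and with 39 and 34 reads in limb and trunk EGFP+ alone (45.5 and 26.4 kb downstream), and a region upstream of the gene had 37 and 26 reads in the same libraries. The 2 EGFP−-only regions of Fli1 had 12 and 13 reads in limb EGFP−. Eng had 5 EGFP+-only and 2 EGFP−-only regions of 12, in a window shared with 9 other genes, and Tie1, the partner receptor of Tek, had 5 EGFP+-only and 1 EGFP−-only of 7, none with Tie1 as the nearest gene.

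Cdh5, Pecam1, Tek, Flt1 and Sox17 each had 2 or 3 EGFP−-only regions and at most 1 EGFP+-only region. Such counts were not rare, since 3858 of the 21581 protein-coding genes had 3 or more EGFP−-only regions. The mean was 1.29 over all genes and 1.49 over the members. At −log10 q of at least 5 the EGFP−-only count was 1 for Cdh5, Pecam1 and Sox17 and 0 for Tek, and at fold of at least 4 Cdh5 had 1 EGFP−-only and 2 EGFP+-only regions. VE-cadherin, the product of Cdh5, holds endothelial cells together, and its gene had 3 EGFP−-only regions and 2 in both fractions. By −log10 p, the strongest EGFP−-only interval of the limb near an endothelial member lay in intergenic sequence upstream of Cdh5, with Cdh5 as the nearest gene, at 44 reads (32.0 to 59.1) in limb EGFP−. The same region had 22 reads in trunk EGFP− and 20 in trunk EGFP+, so in the trunk it was not specific to a fraction. In the limb, an EGFP+ interval of 13 reads lay less than 1 kb away without overlap. The interval was thus EGFP−-only in the limb by the overlap rule, but not where an opposite interval within 1 kb is excluded. The other Cdh5 regions of limb EGFP− alone had 14 and 12 reads.

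Pecam1, the platelet and endothelial adhesion molecule CD31, had the strongest EGFP−-only trunk interval near any member by −log10 p (14.8), with 30 reads (20.2 to 42.8) in an intron 39.7 kb downstream of the nearest start (GRCm39 chr11:106565718-106566109) and nothing listed there in the other 3 libraries. Its other EGFP−-only regions, in limb EGFP− with 17 and 15 reads, lay over Cep95 and nearer to Ddx5. Tek had 3 EGFP−-only regions, all in limb EGFP− with 8, 9 and 14 reads, the latter 2 in a Tek intron 13.3 and 13.7 kb downstream of the start. Flt1, the VEGF receptor also known as a decoy, had 2 neighbouring regions 52.4 and 52.8 kb upstream, with 15 and 16 reads in limb EGFP− alone. Sox17, the SoxF factor of arteries, was the only member with regions in both EGFP− libraries alone as its whole set. Both lay 73.9 to 74.4 kb upstream and had 14 and 11 reads in the limb and 15 and 12 in the trunk.

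Kdr, the main VEGF receptor, had 3 EGFP−-only and 3 EGFP+-only regions, none shared and none above 13 reads. The other SoxF factors went the opposite way to Sox17. Sox7 had 2 EGFP+-only regions of 17 to 18 reads within Pinx1, and Sox18 had 3 EGFP+-only regions of 9 to 10 reads among 10 other genes. Emcn, the vessel sialomucin endomucin, had a region 50.6 kb upstream with 35 reads in limb EGFP+ and 12 in trunk EGFP+. Cldn5, Esam, Flt4 and Robo4 had 1 to 3 regions each, and Egfl7 had 14, none with Egfl7 as the nearest gene. An EGFP−-only region 48.9 kb downstream of Egfl7, nearest to Dipk1b, had 44 reads in limb EGFP− and 40 (28.6 to 54.5) in trunk EGFP−. Across the 35 members, 8 (Erg, Fli1, Sox7, Sox18, Emcn, Eng, Klf1 and Lyl1) had more regions in EGFP+ than in EGFP− in both tissues and 4 (Pecam1, Sox17, Spi1 and Csf1r) the reverse. These are 22.9% and 11.4% of the members, beside 22.1% and 8.92% of all protein-coding genes.

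**Figure D4:**
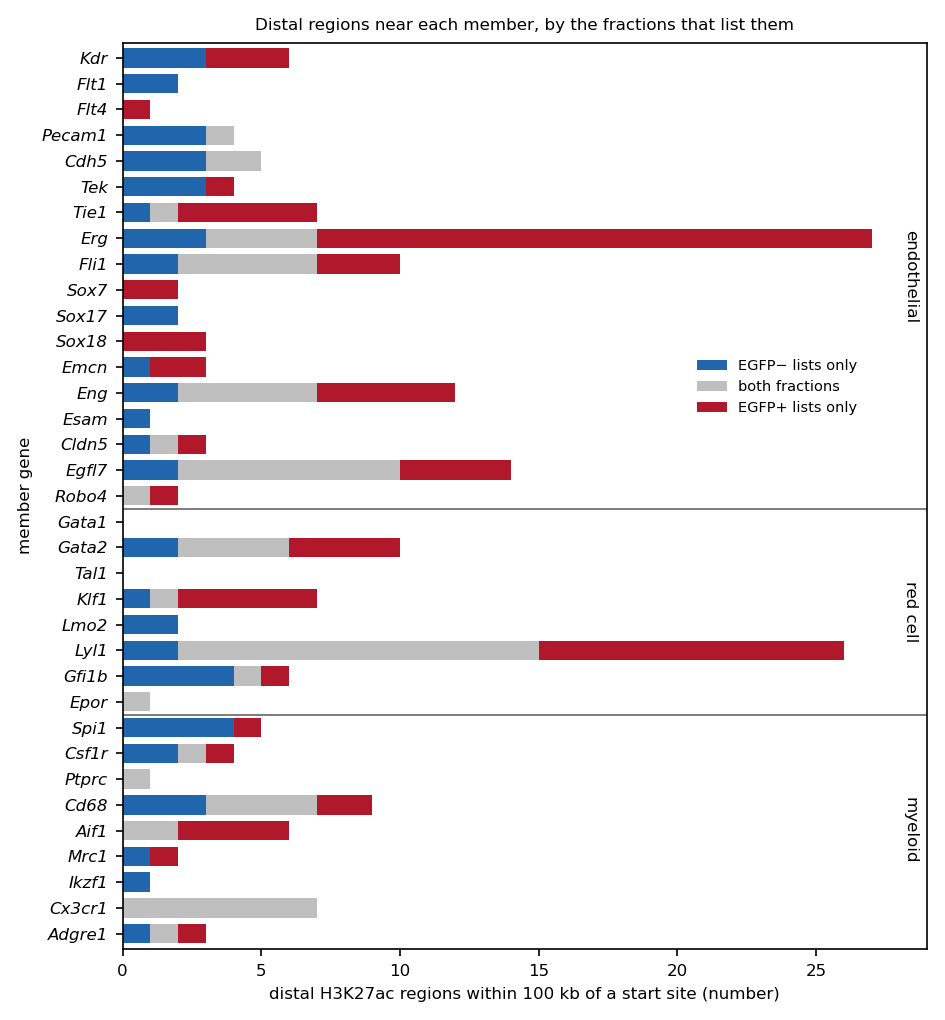
Number of distal H3K27ac regions within 100 kb of each member, split into regions of EGFP− lists only (blue), of both fractions (grey) and of EGFP+ lists only (red). Erg (27) and Lyl1 (26) stand out, and Gata1 and Tal1 have no region. No red part is found for 12 of the 35 members, among them Cdh5, Pecam1, Flt1 and Sox17, beside 38.3% of all protein-coding genes.

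**Figure D5:**
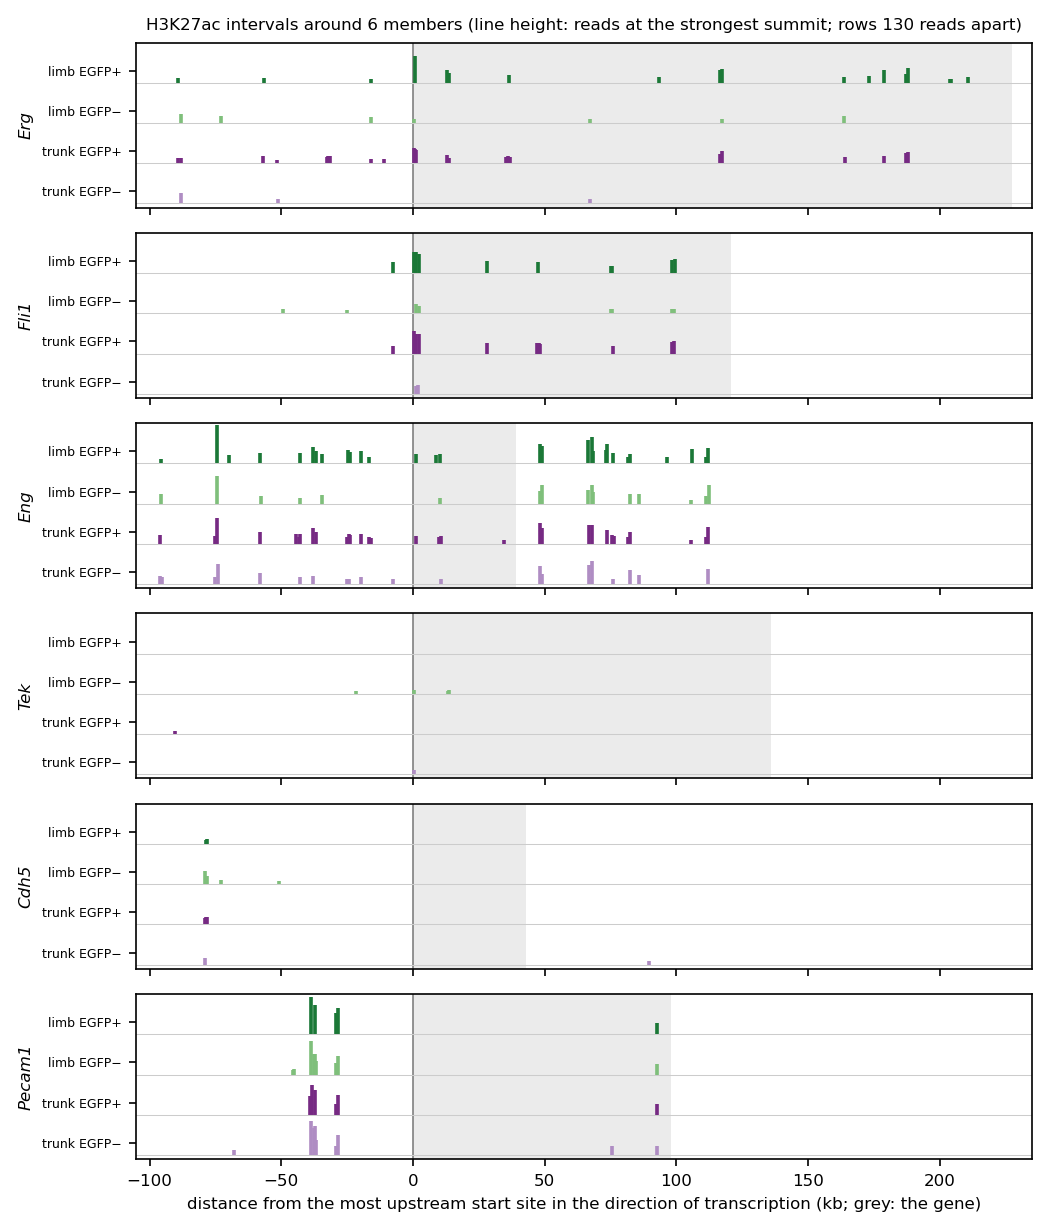
Intervals of the 4 libraries around 6 endothelial members by distance in kb from the most upstream start site, in the direction of transcription, with promoters of neighbouring genes included; line height is the reads at the strongest summit and the grey field is the gene. The EGFP+ libraries have more and higher lines within Erg and Fli1, the few low lines at Tek are mainly those of EGFP− libraries, and within Pecam1 trunk EGFP− has 1 line that the other libraries lack.

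Few of the regions around red cell genes had the member as their nearest gene. Lyl1 had 26 regions, 11 EGFP+-only and 2 EGFP−-only, but its window holds Nfix, Cacna1a and Ier2 and only 4 regions had Lyl1 as the nearest gene. Its strongest EGFP−-only interval had 45 reads (32.8 to 60.2) in limb EGFP−, 45.4 kb upstream of Lyl1 and nearest to Ier2. In trunk EGFP+ the strongest EGFP+-only interval of the class had 33 reads (22.7 to 46.3), 84.1 kb upstream of Lyl1 in a Cacna1a intron. Klf1, the red cell master factor, had 5 EGFP+-only regions and 1 EGFP−-only region of 7, none nearest to Klf1, with the strongest EGFP+-only at 37 reads (26.1 to 51.0) in limb EGFP+, 90.3 kb upstream. Its trunk EGFP−-only interval lay within Hook2 with 15 reads. Under each of the 3 stricter filters the direction turned, to 1 EGFP+-only and 2 EGFP−-only regions. Gfi1b, a repressor of red cell and platelet progenitors, had 4 EGFP−-only regions and 1 EGFP+-only region of 6, the EGFP−-only ones at 11 to 26 reads and within Ralgds or nearest to Cel. Under each of the 3 stricter filters none of these EGFP−-only regions was left, beside 1 or 2 EGFP+-only ones. Gata2 had 4 EGFP+-only and 2 EGFP−-only regions of 10, among them a region 78.7 kb upstream with 18 reads in each EGFP− library and none in EGFP+. Lmo2, a bridging partner of Tal1 and Gata1, had 2 regions, both in trunk EGFP− alone, with 9 reads 27.1 kb upstream and 11 reads in its own intron 0.648 kb downstream of a start site. Epor, the erythropoietin receptor, had 1 region, in all 4 lists.

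The strongest EGFP−-only interval of the limb near a red cell member, by −log10 p (14.8), was not specific to the fraction in the trunk. It lay in an annotated Junb intron, 73.8 kb downstream of Klf1, with 41 reads (29.4 to 55.6) in limb EGFP−, 28 in trunk EGFP+ and 29 in trunk EGFP−. Its sequence, GRCm39 chr8:85702567-85702866, plus strand, is given as the leading site of its class, with its E-box letters in capitals.
Junb, near Klf1: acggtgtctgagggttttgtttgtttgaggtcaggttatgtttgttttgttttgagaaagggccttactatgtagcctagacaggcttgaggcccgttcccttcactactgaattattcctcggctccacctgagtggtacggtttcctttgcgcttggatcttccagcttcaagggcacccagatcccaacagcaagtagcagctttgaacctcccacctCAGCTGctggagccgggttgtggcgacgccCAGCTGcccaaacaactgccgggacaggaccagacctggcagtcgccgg

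Among the myeloid genes Spi1 had the most EGFP−-only regions. It had 4 EGFP−-only regions and 1 EGFP+-only region. The strongest, in limb EGFP− alone with 20 reads (12.2 to 30.9), lay 3.07 kb upstream of the most upstream Spi1 start, with Spi1 as the nearest gene. A region of limb EGFP+ alone with 15 reads lay 3.61 kb upstream, next to it. In trunk EGFP− the strongest had 25 reads (16.2 to 36.9) 19.6 kb upstream, over a UTR of Slc39a13. Csf1r had 2 EGFP−-only regions, 1 of them 8.92 kb upstream with 11 reads in limb EGFP− and nearest to Csf1r, and 1 within Pdgfrb with 20 and 27 reads in the limb and trunk EGFP− lists. Cd68, a lysosomal protein of macrophages, had 3 EGFP−-only regions of 14 to 17 reads nearest to Tnfsf12, and Ikzf1, a lymphoid factor, had 14 reads in trunk EGFP− within Fignl1. Aif1 had 4 EGFP+-only regions of 12 to 36 reads, all in trunk EGFP+, in a window with 21 other genes. Ptprc, the pan-leukocyte protein CD45, had 1 intronic region, with 15 reads in limb EGFP− and 13 in trunk EGFP+. Cx3cr1, a chemokine receptor of tissue macrophages, had 7 regions, all shared by the fractions and all nearest to Csrnp1 or Xirp1. In the trunk, 4 of them were listed in EGFP+ alone, the strongest with 29 reads (19.4 to 41.6). Mrc1 and Adgre1 had 2 and 3 regions, none with the member nearest, and an Adgre1 region nearest to Vav1 had 15 reads (8.40 to 24.7) in limb EGFP+ alone.

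The Spi1 site, GRCm39 chr2:90909215-90909514, plus strand (the strand of the gene), is printed as the site that, among the leading limb EGFP−-only sites of the 3 classes, was listed in 1 library alone. Its capitals are E-box letters, and it has neither the ETS letters nor the PU box.
Spi1: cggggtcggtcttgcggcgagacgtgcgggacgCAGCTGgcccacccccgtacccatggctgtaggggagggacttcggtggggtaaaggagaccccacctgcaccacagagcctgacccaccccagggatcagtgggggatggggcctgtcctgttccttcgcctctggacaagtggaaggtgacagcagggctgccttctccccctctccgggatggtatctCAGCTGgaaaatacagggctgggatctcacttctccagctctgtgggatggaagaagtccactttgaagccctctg

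The letters of lineage factors were searched in the 300 bases around each distal summit, on both strands. ETS letters were AGGAAG. The PU box of Spi1 was GAGGAAGT, which contains the ETS letters. For GATA factors either of the forms AGATAA and, with its other first base, TGATAA was taken. E-box letters were CAGATG as well as the palindrome CAGCTG. KLF letters were CCNCACCC. For SOX factors they were ACAAAG and also, as a common variant, ACAATG. Those of AP-1 were TGANTCA. At EGFP−-only summits near members, ETS letters were found in 16 of 43 in the limb (37.2%, 23.0 to 53.3) and 12 of 32 in the trunk (37.5%, 21.1 to 56.3), beside 38.8% and 41.0% of all EGFP−-only distal summits of those libraries. GATA letters were in 11 of 43 (25.6%, 13.5 to 41.2) and 2 of 32 (6.25%, 0.766 to 20.8), beside 22.8% and 21.1%. E-box letters were in 18 of 43 (41.9%) and 16 of 32 (50.0%), beside 43.5% and 45.0%. SOX letters were in 34.9% and 34.4%, beside 39.6% and 36.6%. KLF letters were in 9.30% and 15.6%, beside 9.65% and 11.0%, and AP-1 letters in 11.6% and 6.25%, beside 9.50% and 8.35%. The PU box was in 1 of 43 and 0 of 32, beside 2.52% and 2.59%, and the 1 was near a myeloid member.

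At EGFP+-only summits near members ETS letters were found in 31 of 68 in the limb (45.6%, 33.5 to 58.1) and 40 of 78 in the trunk (51.3%, 39.7 to 62.8), beside 37.6% and 39.1% of all EGFP+-only distal summits. Near Erg alone they were in 8 of 14 (57.1%) and 11 of 21 (52.4%). KLF letters were in 14.7% and 19.2%, beside 11.1% in each library, and AP-1 letters in 10.3% and 3.85%, beside 8.68% and 8.18%. GATA letters were in 14.7% and 12.8%, beside 20.5% and 19.5%, and E-box letters in 32.4% and 44.9%, beside 35.8% and 37.9%. SOX letters were in 32.4% and 33.3%, beside 33.8% and 33.4%. The PU box was in 0 of 68 and 0 of 78, beside 2.51% and 2.26%. The EGFP+-only windows near members had a higher median GC content (51.7% in the limb and 52.0% in the trunk) than all EGFP+-only windows (48.3% and 49.0%). The same held for EGFP−-only windows, at 51.3% and 53.8% near members against 47.7% and 49.7%, and the part of base composition in these shares was not tested. A match is a description of the letters and does not show that a factor binds.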

How the data were processed

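H3K27ac ChIP-seq peak lists of 4 libraries were used, 1 per group, grouped by the tissue and fraction in their labels. The authors sampled reads equally between libraries, trimmed them with cutadapt 1.18, mapped them with Bowtie2 2.3.5.1, filtered on mapping quality with SAMtools and called peaks per library with MACS2 2.2.7.1, extending reads to 200 bp. A control or q threshold is not given in the sources used here. The deposited lists hold a score (10 times −log10 q, truncated), the fold of pileup over local background as a ratio, and the −log10 p and −log10 q of each summit, all computed by the authors' peak caller.

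Summits of the same interval were joined, on chromosomes 1 to 19, X and Y, and set against GENCODE annotation of GRCm39, the build of the files. Reads at a summit were recovered from fold and −log10 p (tolerance 0.001). A promoter spanned 2 kb before and 500 bp after any of 67388 start sites of protein-coding transcripts, and distal intervals overlapped none. EGFP−-only or EGFP+-only intervals had no overlap of 1 bp or more with the other fraction's list in the same tissue. Intervals (95%) cover counting error only. Calls were tested on simulated data, where 2019 of 2019 were recovered. The rule for members uses names alone, but the members, gene lists, comparisons and alternatives were chosen with earlier results of these data known.

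Named were all 35 members by promoter pattern, and per class up to 3 members with most EGFP−-only and up to 2 with most EGFP+-only regions, every member with an EGFP+-only promoter, and per class and tissue the 2 EGFP−-only and 1 EGFP+-only intervals of highest −log10 p. Other members were added for completeness after their values were seen. Alternatives were stricter peak filters, another overlap rule, other windows and start sites, nearest-gene assignment, and leaving out members. Scripts ran in Python 3.11.15 with pysam 0.24.0 for sequences, scipy 1.17.1 for intervals, pandas 2.3.3 and numpy 2.4.6 for tables, and matplotlib 3.10.9 for plots. The sequence of 1 named region and the values of 1 further gene are not reported here.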

Additional observations from a re-analysis of the deposited data

Results flagged for a closer look

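For 6 of the 35 members the fraction with more distal regions in the limb had fewer in the trunk. Members with equal counts in both fractions of a tissue were not included, and the same count over all genes was not made. The difference between the tissues was not tested, since each group has 1 library. Tek had 0 regions in limb EGFP+ and 3 in limb EGFP−, against 1 in trunk EGFP+ and 0 in trunk EGFP−. Robo4, a guidance receptor of vessels, had 2 and 1 in the limb and 0 and 1 in the trunk, in the same order. Gata2 had 7 and 5 in the limb and 4 and 5 in the trunk. Ptprc had 0 and 1, then 1 and 0, and Mrc1, the mannose receptor of macrophages, had 1 and 0, then 0 and 1. Cx3cr1 had 5 and 6 in the limb and 6 and 2 in the trunk. For the myeloid members as a class, the distal intervals numbered 18 in limb EGFP+ and 23 in limb EGFP−, and 20 in trunk EGFP+ and 17 in trunk EGFP−.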

How the results depend on the processing

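No paired analysis was possible because each group has 1 library, and the same holds for leaving out a replicate. Of 88 recomputed summary values, 68 stayed within their counting interval (counts within 1.5 times) and 20 did not, and of 144 recomputed counts of named members 52 stayed within 1.5 times and 92 did not. The 1 EGFP−-only promoter of the limb, that of Tek, became 0 at −log10 q of at least 5, at fold of at least 4 and among the 20000 strongest intervals of each list, and under all 3 the 1 EGFP−-only promoter of the trunk was Egfl7 in place of Tek. The share over all genes at the same setting follows each share near members. At −log10 q of at least 5 the EGFP+-only share was 65.4% (all genes 64.7%) in the limb and 75.4% (60.6%) in the trunk, and the EGFP−-only shares were 41.7% (41.6%) and 40.0% (42.4%). At fold of at least 4 the limb EGFP+-only share was 74.1% (68.3%), and the EGFP−-only shares were 50.0% (51.6%) and 57.1% (52.2%). With no opposite interval allowed within 1 kb, the limb EGFP−-only share was 31.4% (44.9%) and the trunk EGFP+-only share 53.0% (56.4%). The latter was 56.6% (56.3%) with the 5′-most start alone, and 56.9% without the 8 members known from other cells, which also left 1 EGFP+-only promoter in the limb and 1 in the trunk. Nearest-gene assignment gave EGFP−-only shares of 63.3% and 62.5% and EGFP+-only shares of 66.7% and 87.8% (limb, trunk). Without Erg as well, an alternative chosen after seeing the data, these were 69.2% and 57.1% (EGFP−-only) and 56.5% and 76.2% (EGFP+-only). The cause of these shifts was not tested. Sites with fewer than 7 or 8 reads at the summit would not have been listed, and over a higher local background more reads were needed.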
